A study of Rattus norvegicus with 23 samples.

Results

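The integrin and laminin genes of the rat heart and its great vessels are described here. They were taken as all genes whose RefSeq symbol begins with Itga or Itgb, or is Lama, Lamb or Lamc followed by a number. Of 44 rat genes that met this rule, 29 were measured by 37 named probes, out of 16544 named genes in all. The 29 hold 11 integrin alpha subunits, 7 integrin beta subunits, 7 laminin chains and 4 genes (Itgb1bp1, Itgb1bp2, Itgb3bp and Itgbl1) that share the symbol but are not subunits. Another 3 were pseudogenes, and 12 coding genes (Itga11, Itga2, Itga2b, Itga3, Itga9, Itgav, Itgax, Itgb8, Lama2, Lama3, Lama4 and Lamb1) were not analysed here. RNA of male Wistar rats aged 8 to 11 weeks was hybridized to 23 single-color Agilent arrays. There were 4 arrays each of the left atrium next to the pulmonary vein (LA), the left ventricular mass (LV), the sinoatrial node region (SA), the pulmonary vein (PV) and the pulmonary artery (PA), and 3 of right ventricular free wall (RV). The labels name no genetic change, and no treatment set them apart. Each SA sample pooled nodes of 2 rats, the tissue came from 12 rats, and an LV mass was cut into 3 pieces. Which arrays share a rat is not given in the sources used here, so p-values measure the spread between these samples.

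Integrins are receptors made of 1 alpha and 1 beta subunit that span the plasma membrane, hold cells to the extracellular matrix and couple it to the actin cytoskeleton. Laminins are heterotrimers of an alpha, a beta and a gamma chain and, with type IV collagen, nidogen and perlecan, form the basement membrane that surrounds each cardiac myocyte and smooth muscle cell and underlies the endothelium. In heart muscle, the alpha 7 beta 1 integrin is the main laminin receptor of the adult myocyte, whereas alpha 8 and alpha 1 with beta 1 are known from vascular smooth muscle.

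Levels are given as log2(normalized signal + 1) of the brightest probe of a gene on each array, and differences are in log2 units with the standard error (SE) of the limma fit of all 23 arrays. A gene was called at a Benjamini-Hochberg adjusted p below 0.05 over the 16089 genes tested. Folds of dim genes on this scale depend on how low readings are handled. On an array, 58.5% to 79.7% of all probes were well above background, 76.8% ± 1.98 (SD, n = 11 arrays) in the first row of a slide and 62.9% ± 3.55 (SD, n = 12 arrays) in the second. All 29 genes passed the filter on low values. Of them, 21 were well above background on every array, 7 on some arrays and 1, Itgal, on none. Some listed markers set the labelled regions apart, and others did not. Irx4 averaged 12.44 in LV and 12.31 in RV and at most 5.52 elsewhere, Mybphl was at 17.19 to 17.64 in LA, SA and PV, and Myh11 at 17.50 in PA. Shox2, a pacemaker factor, averaged 11.40 in SA but also 11.03 in PV. The atrial marker Myl4 averaged 17.92 in LV and 17.74 in LA, and the pacemaker marker Tbx3 10.60 in LV and 10.73 in SA. The ventricular marker Myh7 averaged 18.25 to 18.60 in all regions but PA. PA still gave cardiac troponin T (Tnnt2) at 14.45, against 18.44 to 18.88 in the other regions.

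Integrin and laminin RNA differed widely between regions, and PA stood out at both ends. Of the 29 genes, 26 differed among the 6 regions by limma's F-test (89.7%), beside 64.4% of all genes tested. The 3 not called were Itgal and Lama1, which were near background, and Lamb2, a basement membrane laminin beta chain that lay between 13.08 and 13.63 on all 23 arrays. PA had the highest mean of 13 genes and the lowest of 9. LA had the lowest mean of 7 and SA of 6, and PV had the highest mean of 1 gene, Itgb4.

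**Figure D1:**
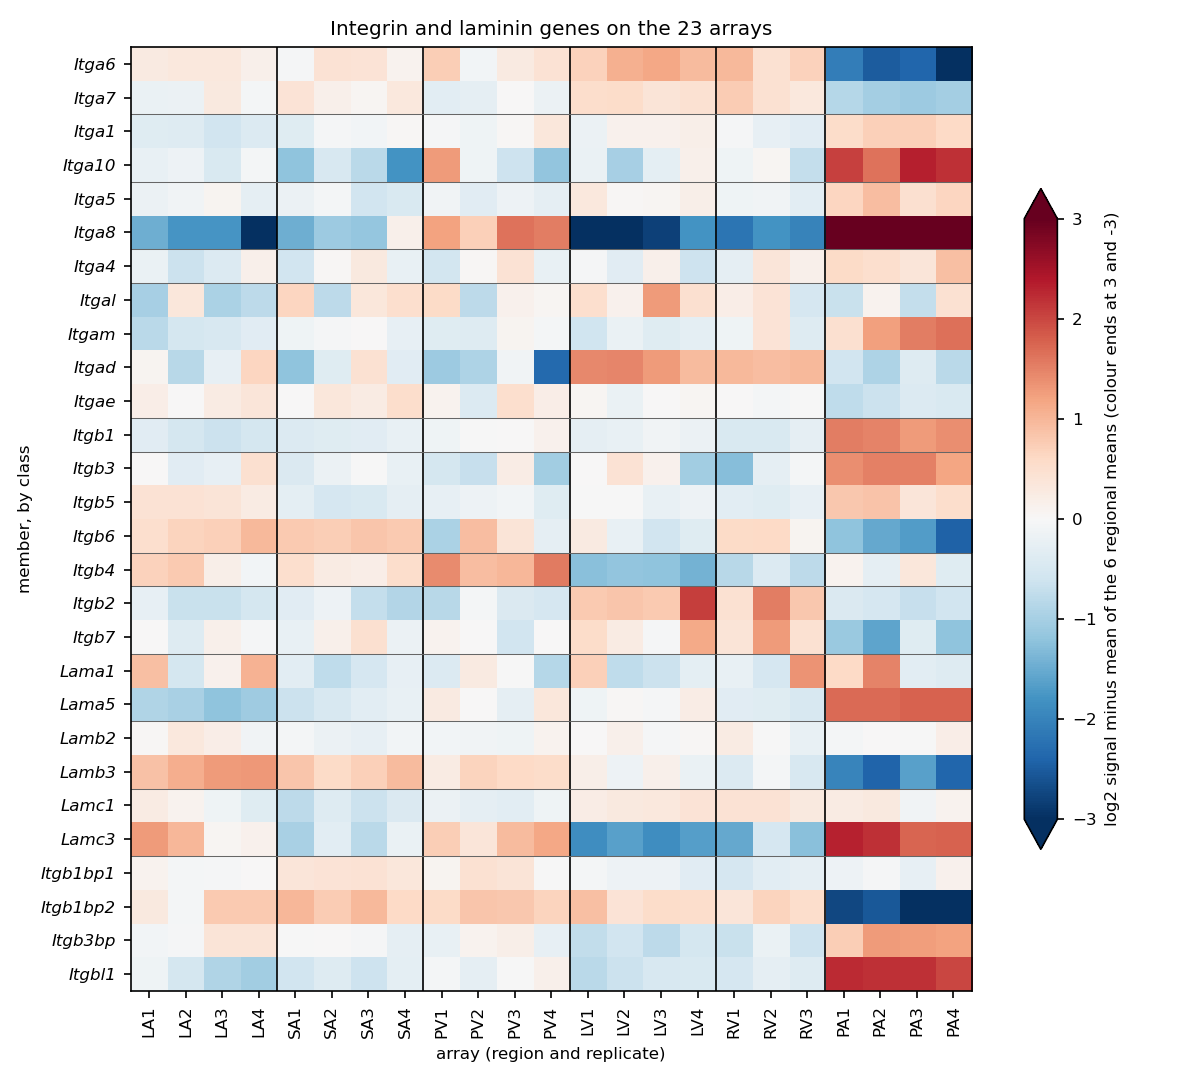
Signals of 28 of the integrin and laminin genes (rows, grouped by class) on the 23 arrays (columns, by region and replicate). Colour is the log2 signal minus the mean of the 6 regional means of the gene, with the scale ending at 3 and -3, and the red cells at the end of the scale are those of Itga8 in the 4 PA columns.

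PA was set against the averaged remaining 5 regions to describe the arterial wall against heart tissue. In PA, 13 of the 29 genes were higher and 10 lower, 79.3% in all, beside 59.1% of all genes tested (31.4% higher, 27.7% lower). The median difference of the 29 was 0.16 and that of all genes 0.05. In 18 of the called genes, the 4 PA arrays did not overlap the other 19, beside 32% of all genes tested that were called without overlap. Among integrin subunits, the collagen-binding alphas (Itga1, Itga10), the alphas that bind ligands with an RGD peptide (Itga5, Itga8) and the common partner Itgb1 were higher in PA, while the laminin-binding alphas (Itga6, Itga7) were lower. Among laminin chains, Lama5 and Lamc3 were higher and Lamb3 lower. In bulk tissue, fewer cells of a type and less RNA per cell cannot be told apart, here and in the comparisons that follow.

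Itga8 encodes the alpha 8 subunit, which pairs with beta 1 and binds nephronectin, fibronectin and osteopontin. Its 4 PA arrays read 16.35, 16.47, 16.22 and 16.46, with a mean of 16.38 ± 0.11 (SD, n = 4). The 4 PV arrays read 11.27, 10.77, 11.69 and 11.60, those of SA 8.59, 8.98, 8.91 and 10.22, and those of LA 8.60, 8.29, 8.30 and 6.90. LV read 7.07, 7.05, 7.26 and 8.27 and RV 7.87, 8.26 and 8.06. The levels therefore ran from PA through PV to SA, with PA apart from PV and PV apart from all other arrays, whereas LA, LV and RV overlapped. The difference of PA was 7.58 (SE 0.29), a 191-fold ratio, with a limma adjusted p of 8.03e-15, and within the slides and rows it was 7.11 to 7.89.

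Itgb1, the beta subunit shared by most matrix-binding integrins, read 16.35, 16.31, 16.12 and 16.22 in PA. It lay between 14.19 and 14.96 on the other 19 arrays, so that no array came near PA. The difference was 1.71 (SE 0.06, adjusted p 6.24e-15), and its second probe gave 1.5. Itga5, the fibronectin receptor alpha, was higher in PA by 0.81 (SE 0.09, adjusted p 2.55e-07) and Itga1, a collagen receptor alpha, by 0.77 (SE 0.09, adjusted p 2.16e-07). PA did not overlap the other regions in either gene. Itga10, another collagen receptor alpha, read 7.40, 6.98, 7.68 and 7.53 in PA and was well above background on 10 of the 19 other arrays. Its difference was 2.47 (SE 0.30, adjusted p 5.96e-07), 2.13 where dim readings were raised to the faintest detected signal of their array, and 1.23 with normexp background correction.

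The beta partners of alpha v did not share a direction. Itgb3, the vitronectin receptor beta of platelets and vascular cells, read 7.46, 7.56, 7.57 and 7.23 in PA and 4.79 to 6.55 elsewhere, a difference of 1.68 (SE 0.24, adjusted p 4.40e-06), with 15 of the 19 other arrays well above background. Its probes, which were the brighter on 17 and 6 arrays, gave 1.56 and 2.67. Itgb5, another vitronectin receptor beta, was higher in PA by 0.76 (SE 0.08), but its PA arrays, at 11.32 to 11.82, overlapped those of LA, at 11.21 to 11.41. Itgb6, an epithelial beta subunit, was lower by 2.05 (SE 0.24, adjusted p 2.66e-07), or 1.60 with dim readings raised in the same way, since 2 of the 4 PA arrays were well above background. It did not overlap, and 1 of the 19 other arrays, in PV, was not well above background. Itga4, the alpha subunit that binds VCAM-1, was higher by 0.70 (SE 0.18, adjusted p 0.00232), with overlap. With normexp background correction the differences were smaller, at 0.99 for Itgb3, -0.74 for Itgb6 and 0.41 for Itga4.

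Lama5, the laminin alpha chain of vascular and epithelial basement membranes, read 12.78, 12.78, 12.84 and 12.84 in PA. The other regions lay between 9.87, in LA, and 11.41, in PV, below every PA array. The difference was 2.09 (SE 0.09, adjusted p 1.15e-13), a 4.26-fold ratio, and the second probe gave 1.84. Lamc3, the gamma 3 chain, read 12.57, 12.46, 12.01 and 12.03 in PA and 8.40 to 11.55 elsewhere, with a difference of 2.40 (SE 0.21, adjusted p 5.35e-09). Its second probe, well above background on 4 arrays, gave 1.29. The widespread gamma 1 chain, Lamc1, was not called in PA, with a difference of 0.16 and a 95% interval from -0.04 to 0.36, nor was Lamb2, at 0.05 (95% interval -0.12 to 0.22).

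The largest decrease in PA was that of Itgb1bp2, which encodes melusin, a chaperone of striated muscle that binds the beta 1 cytoplasmic tail. It read 7.91, 8.09, 7.07 and 7.05 in PA and 10.58 to 11.64 on the other arrays, lower by 3.74 (SE 0.17, adjusted p 2.0e-13). Itga6, the alpha subunit of the laminin receptors alpha 6 beta 1 and alpha 6 beta 4, read 7.89, 7.47, 7.58 and 6.92 in PA and 9.88 to 11.14 elsewhere. PA and the other regions were far apart in both genes. Itga6 was 8.01-fold lower in PA (SE 0.15 on the log2 scale, adjusted p 6.03e-13), and its second probe gave a log2 difference of -2.17. Itga7, the myocyte laminin receptor alpha, read 9.79, 9.64, 9.56 and 9.65 in PA and 10.35 to 11.42 elsewhere, lower by 1.19 (SE 0.09, adjusted p 5.62e-10). Its PA arrays were again below all others.

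Lamb3 encodes the beta 3 chain of epithelial laminin. It read 6.78, 6.35, 7.14 and 6.38 in PA and 8.27 to 10.05 elsewhere, so that PA was below every other array. The difference was -2.52 (SE 0.13, adjusted p 7.92e-13). Itgb4, the beta partner of alpha 6 in hemidesmosomes, was not called, at -0.06 with a 95% interval from -0.38 to 0.26.

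The leukocyte subunits were mixed. Itgam, the CD11b alpha, was higher in PA by 1.46 (SE 0.16, adjusted p 1.42e-07) on its brighter probe, with PA at 9.37 to 10.54 and the rest at 8.09 to 9.30. Its second probe, well above background on 17 arrays, gave -0.02, so that the probes disagree. Itgb2, the common beta of leukocytes, was lower by 0.66 (adjusted p 0.0103), Itgb7, well above background on 2 PA arrays, by 1.28 (adjusted p 3.16e-05), or 0.50 with normexp background correction, and Itgad, the CD11d alpha, by 0.81 (adjusted p 0.0257), all with overlap. For Itgb2 the decrease lay against the ventricles, which averaged 8.23 in LV and 8.05 in RV. Its PA mean of 6.57 was close to LA (6.58) and PV (6.66), with SA between those. Itgad averaged 6.89 in PA, above PV at 6.44 but below the other regions, with LV at 8.84 and RV at 8.51. The call of Itgad was lost without PA replicate 2 or PA replicate 4, at an adjusted p of up to 0.0841. Itgae, the CD103 alpha, was lower by 0.68 (SE 0.12, adjusted p 3.68e-05) without overlap, although the highest PA array, at 11.14, nearly met the lowest PV array, also at 11.14. Of the 4 genes that are not subunits, Itgbl1, a secreted protein with EGF-like repeats akin to a beta subunit, was higher by 2.58 (SE 0.12, adjusted p 2.15e-13), with PA at 13.58 to 13.80 and the rest at 10.54 to 11.73. Itgb3bp, a centromere protein and nuclear receptor cofactor, was higher by 1.34 (SE 0.12, adjusted p 5.07e-09), with 1.37 and 0.55 by its probes. Itgb1bp1, a negative regulator of beta 1 activation, was not called.

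Cell type markers moved with this comparison. All 5 smooth muscle markers (Myh11, Acta2, Cnn1, Tagln and Smtn) were higher in PA, with a summed signal of 469490 to 556104 against 25429 to 68363 on the other arrays. All 5 pan-cardiac myocyte markers were lower, with sums of 127783 to 197372 in PA and 1372190 to 2337470 elsewhere, as were 4 of 5 endothelial markers, with sums of 12172 to 23927 in PA and 22276 to 51396 elsewhere. None of these markers was below background on every PA array. Of 6 leukocyte markers 3 were lower in PA and none higher, with sums of 2212 to 2259 in PA and 1708 to 5254 elsewhere, and Cd3e and Cd79b were not above background there. Of 5 Schwann cell markers 3 were lower and 1 higher (sums of 1881 to 4031 in PA, 1605 to 17283 elsewhere), and of 4 measured adipocyte markers 3 were higher and 1 lower (8530 to 16626 in PA, 4045 to 21684 elsewhere). Of 4 fibroblast markers, Col1a1 and Lum were higher in PA and Pdgfra lower, and their sum, at 210747 to 247916, lay above that of every other array, at 61011 to 185402. The part of these cell types in the integrin and laminin differences was not tested. In each slide and each row of arrays, all 23 called genes kept their direction.

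**Figure D2:**
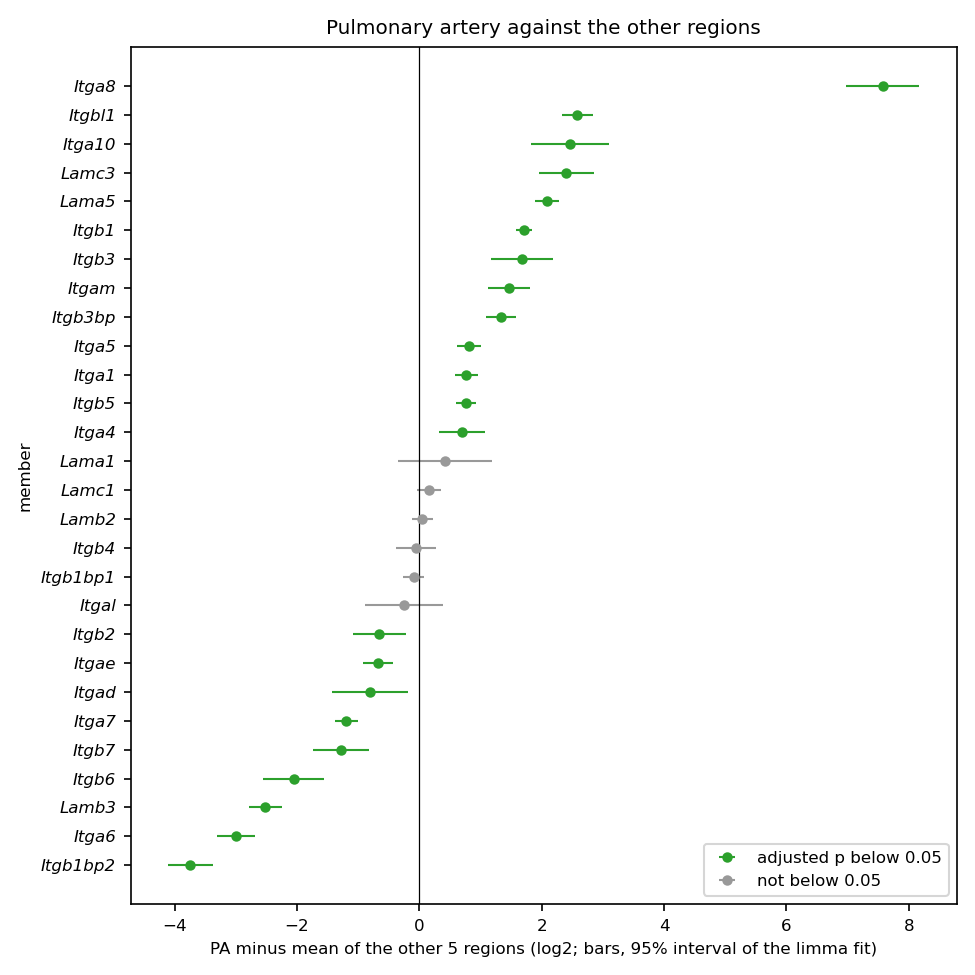
PA minus the mean over the remaining 5 regions for 28 of the integrin and laminin genes (log2; points are estimates of the limma fit and bars their 95% intervals, n = 4 PA arrays and 19 others). Green marks the 22 genes with an adjusted p below 0.05, which run from Itga8 at 7.58 to Itgb1bp2 at -3.74, and grey the 6 others.

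The promoters of the genes were read for letters of known control elements. A RefSeq promoter (GRCr8) was found for 20 of the 29, and the 250 bases before the start given there were searched on both strands for the GC box (GGGCGG), the MCAT element of muscle genes (CATTCC) and the CArG box of smooth muscle genes. The GC box was present in 6 of 12 genes higher in PA (Itga5, Itgam, Itgb1, Itgbl1, Lama5 and Lamc3), in 0 of 5 lower genes and in 1 of 3 not called, beside 30.5% of 33469 promoters. The MCAT element was present in 2, 0 and 2 of these (12.1% of all), and the CArG box in 0, 1 (Itgb6) and 0 (1.5% of all). A match is a description of letters, not a bound site. The start was the first annotated base of the gene for 11 of the 20 and lay after it, inside the gene, for 9, among them all 5 lower genes. In Itgb6, the gene with the CArG box, it lay 48846 bases after that base, and in Itgb7 4451, so that both windows lie inside the gene. The promoters shown, 5′ to 3′ on the strand of the gene, are those of the 6 genes with the largest PA differences among the called genes of the 11. They are Itga8 (chr17:80410634-80410883, minus strand), Itgbl1 (chr15:107186542-107186791, plus strand), Itga10 (chr2:186871461-186871710, plus strand), Lamc3 (chr3:35562739-35562988, plus strand), Lama5 (chr3:187695975-187696224, minus strand) and Itgb1 (chr19:73602027-73602276, plus strand). Capitals mark the GC box or its complement (CCGCCC), and, in Itga10 and Itgb1, the MCAT element or its complement (GGAATG), and no capitals overlap.
Itga8: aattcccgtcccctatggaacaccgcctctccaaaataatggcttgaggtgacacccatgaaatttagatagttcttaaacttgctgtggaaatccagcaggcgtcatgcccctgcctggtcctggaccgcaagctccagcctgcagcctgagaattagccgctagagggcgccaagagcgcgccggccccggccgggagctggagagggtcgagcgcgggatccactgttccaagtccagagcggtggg
Itgbl1: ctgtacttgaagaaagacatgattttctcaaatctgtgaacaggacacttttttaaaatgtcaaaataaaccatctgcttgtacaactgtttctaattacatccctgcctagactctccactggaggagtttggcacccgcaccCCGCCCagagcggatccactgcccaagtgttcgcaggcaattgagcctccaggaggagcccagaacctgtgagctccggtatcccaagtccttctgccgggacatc
Itga10: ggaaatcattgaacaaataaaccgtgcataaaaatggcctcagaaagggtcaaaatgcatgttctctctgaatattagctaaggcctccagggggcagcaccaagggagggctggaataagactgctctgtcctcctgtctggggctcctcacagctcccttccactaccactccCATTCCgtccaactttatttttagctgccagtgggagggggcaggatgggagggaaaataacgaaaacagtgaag
Lamc3: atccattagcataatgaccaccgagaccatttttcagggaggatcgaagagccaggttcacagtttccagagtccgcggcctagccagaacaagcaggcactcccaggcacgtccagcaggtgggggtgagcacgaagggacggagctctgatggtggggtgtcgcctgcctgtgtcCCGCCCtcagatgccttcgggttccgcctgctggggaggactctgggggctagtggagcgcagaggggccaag
Lama5: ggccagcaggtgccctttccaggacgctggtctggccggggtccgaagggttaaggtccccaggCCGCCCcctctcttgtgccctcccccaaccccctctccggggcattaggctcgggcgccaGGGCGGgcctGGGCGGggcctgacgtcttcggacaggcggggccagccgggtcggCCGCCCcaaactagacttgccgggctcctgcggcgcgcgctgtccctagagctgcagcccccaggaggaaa
Itgb1: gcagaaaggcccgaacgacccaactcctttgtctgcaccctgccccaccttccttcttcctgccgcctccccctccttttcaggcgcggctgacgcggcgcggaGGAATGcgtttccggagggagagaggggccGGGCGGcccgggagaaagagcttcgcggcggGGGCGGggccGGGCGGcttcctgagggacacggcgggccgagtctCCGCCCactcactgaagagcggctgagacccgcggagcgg
All 6 were higher in PA. Itgb1 and Lama5 each held 4 GC boxes and Itgbl1 and Lamc3 each held 1, whereas Itga8, with the largest difference, held none of the 3 motifs in this window.

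LA, SA and PV were then compared with LV and RV, that is, the atrial side of the heart with the ventricles. On the atrial side, 6 of the 29 genes were higher and 8 lower, 48.3% in all, beside 40.9% of all genes tested (18.6% higher, 22.3% lower). The median difference was -0.08, as for all genes. The higher genes included the hemidesmosomal beta Itgb4 and the laminin chains Lamc3 and Lamb3. The lower genes included the leukocyte beta Itgb2 with its partner alpha Itgad, both laminin-binding alphas, and the laminin chains Lamc1 and Lama5. In 5 of the 14 genes, the 12 arrays of the atrial side did not overlap the 7 ventricular ones, beside 11.1% of all genes tested.

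Itgb4 read 12.55, 12.64, 12.02 and 11.78 in LA, 12.37, 12.09, 12.05 and 12.37 in SA, and 13.27, 12.79, 12.85 and 13.41 in PV. In the ventricles it read 10.61, 10.68, 10.66 and 10.43 in LV and 11.01, 11.45 and 11.07 in RV. Every atrial-side array exceeded every ventricular one, and PV exceeded LA and SA. The difference was 1.63 (SE 0.13, adjusted p 7.82e-09), and 1.49 and 1.69 within the rows of arrays.

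Itgb4's partner alpha Itga6 moved the other way, with 9.88 to 10.70 on the atrial side and 10.42 to 11.14 in the ventricles, a difference of -0.56 (SE 0.13, adjusted p 0.00167) with overlap. Lamb3 had its highest mean in LA (9.90 ± 0.20, SD, n = 4), followed by SA (9.53 ± 0.15), PV (9.27 ± 0.18), LV (8.75 ± 0.20) and RV (8.44 ± 0.22, n = 3). In this order SA did not pass the test against LA, nor PV against SA, nor RV against LV. The lowest atrial-side array, at 9.01, was just above the highest ventricular one, at 8.94. The difference was 0.97 (SE 0.11, adjusted p 6.89e-07).

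Lamc3 read 11.54, 11.26, 10.33 and 10.40 in LA, 9.30, 9.95, 9.46 and 10.06 in SA, and 11.01, 10.62, 11.21 and 11.42 in PV. It read 8.40, 8.65, 8.40 and 8.61 in LV and 8.73, 9.75 and 9.02 in RV. LA and PV were above all ventricular arrays, but SA overlapped RV. The difference was 1.71 (SE 0.19, adjusted p 3.90e-07), and its dim second probe gave 0.38. Lamc1 was lower on the atrial side by 0.62 (SE 0.08, adjusted p 3.91e-06) with overlap, with the lowest mean in SA (13.31 ± 0.19, SD, n = 4) and the highest in RV (14.25 ± 0.08, n = 3). Itga7 was lower by 0.49 (SE 0.08, adjusted p 4.73e-05) and Lama5 by 0.27 (SE 0.08, adjusted p 0.0123), both with overlap. For Lama5 the 3 regions did not share this direction, since it averaged 10.04 in LA and 10.65 in SA but 11.16 in PV, beside 11.09 in LV and 10.67 in RV. Itga8 was higher by 1.77 (SE 0.25, adjusted p 9.35e-06), with overlap. It averaged 11.33 in PV and 9.17 in SA but 8.02 in LA, beside 8.07 in RV and 7.41 in LV.

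**Figure D3:**
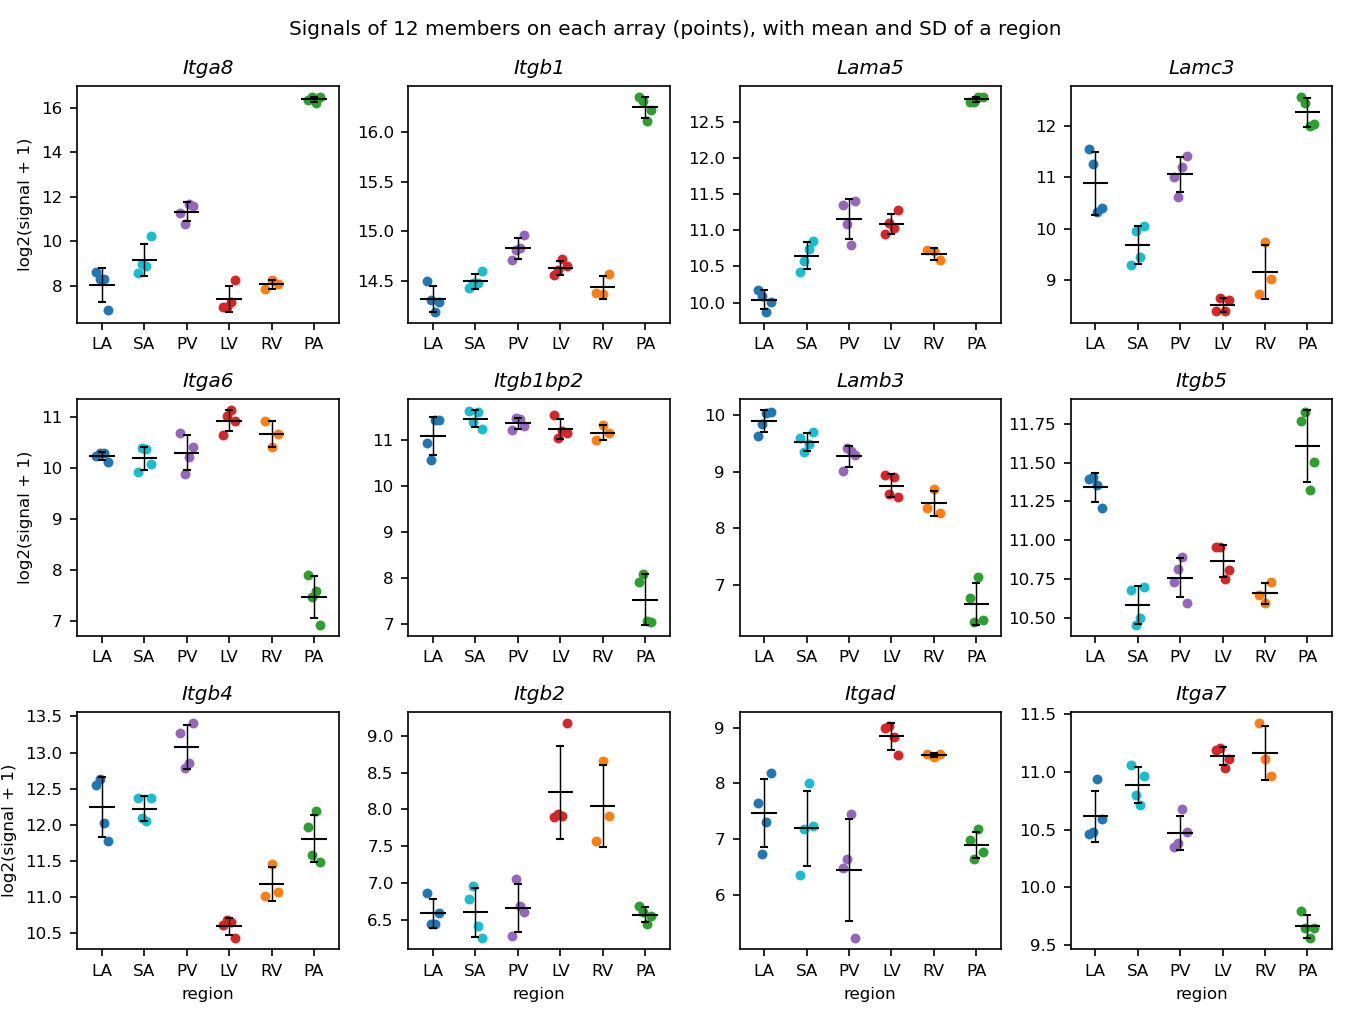
Log2 signals of 12 integrin and laminin genes on each array (points), with the mean (line) and SD (bars) of each region, n = 4 arrays and 3 for RV, each panel with its own vertical axis. Itga8, Itgb1, Lama5 and Lamc3 are highest in PA, Itga6, Itgb1bp2, Lamb3 and Itga7 lowest there, Itgb5 is higher in LA and PA, Itgb4 peaks in PV, and Itgb2 and Itgad are highest in the ventricles.

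Itgb2 read 7.90, 7.94, 7.91 and 9.18 in LV and 7.57, 8.65 and 7.91 in RV. It lay between 6.24 and 7.06 on all LA, SA and PV arrays and between 6.43 and 6.68 in PA. The ventricles thus stood above every other array, by a difference of 1.53 from the atrial side (written atrial side minus ventricles, -1.53, SE 0.18, adjusted p 1.18e-06, and -0.99 with normexp background correction). Itgad read 8.51 to 9.02 in LV, 8.47 to 8.53 in RV, and 5.22 to 8.19 on the atrial side, a difference of -1.64 (SE 0.26, adjusted p 3.74e-05) without overlap. Itgb7 was lower on the atrial side by 0.63 (adjusted p 0.0108), or 0.36 with normexp background correction, with overlap, and its call was lost without RV replicate 2 and with quantile normalization, at an adjusted p of up to 0.0600. The other 3 leukocyte alphas (Itgam, Itgae and Itgal) were not called here. Itgam differed by -0.08 on its brighter probe and by -0.99 on its second. Itgae had its highest mean in SA (11.83), above LV (11.53) and RV (11.54). Leukocyte markers moved with Itgb2, Itgad and Itgb7. Of 6, Ptprc, Cd53, Cd68 and Csf1r were lower on the atrial side, and the summed signal of the 6 was 4113 to 5254 in LV and 4154 to 5217 in RV, 2257 to 2512 in LA, 1768 to 2134 in SA and 1708 to 1985 in PV. Cd3e, a T cell marker, was not above background on any array of LA, RV, SA, PV or PA. The part of leukocytes was not tested.

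Of the genes that are not subunits, Itgb3bp was higher on the atrial side by 0.59 (SE 0.10, adjusted p 1.17e-04), with overlap, and Itgb1bp1 by 0.48 (SE 0.07, adjusted p 1.67e-05), without. Itga5 lay below the ventricles by 0.20 with an adjusted p of 0.0548. Other cell type markers also differed. On the atrial side 4 of 5 smooth muscle, 4 of 5 Schwann cell, 3 of 3 measured mesothelial, 3 of 3 erythroid and 4 of 4 measured adipocyte markers were higher, and 4 of 5 endothelial and 2 of 4 lung epithelial markers were lower. The summed erythroid signal was 25725 to 143413 on the atrial side and 7730 to 17385 in the ventricles. The summed mesothelial signal was 21945 to 27029 in LA and 470.1 to 2109 in LV, and the summed Schwann cell signal 12479 to 17283 in PV and 1605 to 2435 in LV. The part of these cells in the differences was not tested. All 14 called genes kept their direction in each slide and row.

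SA was compared with LA to describe the node region against atrial muscle. In SA, Lama5, Itga8 and Itgb1bp1 were higher and Lamc3, Itgb5 and Lamc1 lower, which is 6 of 29 genes or 20.7%, beside 15.3% of all genes tested (7.03% higher, 8.26% lower). Lama5 read 10.43, 10.58, 10.75 and 10.85 in SA and 10.18, 10.09, 9.87 and 10.00 in LA, without overlap, a difference of 0.61 (SE 0.12, adjusted p 0.00163). Itgb5 read 10.68, 10.45, 10.50 and 10.70 in SA and 11.40, 11.41, 11.36 and 11.21 in LA, a difference of -0.76 (SE 0.10, adjusted p 6.39e-05). SA was thus above LA in the laminin chain and below it in the vitronectin receptor beta on every array. Lamc3 was lower in SA by 1.19 (SE 0.27, adjusted p 0.00557) and Lamc1 by 0.52 (SE 0.12, adjusted p 0.00573), and Itgb1bp1 was higher by 0.38 (SE 0.10, adjusted p 0.0178), all without overlap. Of all genes tested, 13.8% were called without overlap between SA and LA. The dim second probe of Lamc3 went the other way, at 0.53, so that its probes disagree here. For Itga8 the difference was 1.15 (SE 0.37, adjusted p 0.0390), and the lowest SA array, at 8.59, lay just under the highest of LA, at 8.60. With only the 8 arrays compared, the calls of Itga8, Lamc1 and Lamc3 were lost. The call of Itga8 was also lost with array row or replicate number as a block, with quantile normalization, and without any one of 6 arrays (LA replicates 2, 3 and 4, SA replicates 2, 3 and 4), with a highest adjusted p of 0.161, in the fit of the 8 arrays, and that of Itgb1bp1 without LA replicate 2 or SA replicate 3, at up to 0.0528.

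PV was compared with LA and with SA, since the vein wall carries a sleeve of heart muscle next to the atrium. Against LA, Itga8, Lama5, Itgb4, Itgbl1, Itgb1 and Itga1 were higher in PV and Lamb3 and Itgb5 lower, 8 of 29 genes or 27.6%, beside 13.5% of all genes tested (6.99% higher, 6.51% lower). The difference of Itga8 was 3.31 (SE 0.37, adjusted p 8.23e-06), a 9.93-fold ratio, and 2.72 to 4.79 within the slides and rows. Lama5 read 11.34, 11.09, 10.79 and 11.41 in PV, above all LA arrays, by 1.12 (SE 0.12, adjusted p 5.34e-06). Itgb1 read 14.71, 14.81, 14.84 and 14.96 in PV and 14.50, 14.30, 14.19 and 14.29 in LA, by 0.51 (SE 0.08, adjusted p 2.84e-04). All PV arrays thus exceeded all LA arrays in these 3 genes. Itgb4 was higher by 0.84 (SE 0.20, adjusted p 0.00694), Itga1 by 0.49 (SE 0.11, adjusted p 0.00628) and Itgbl1, with overlap, by 0.61 (SE 0.15, adjusted p 0.0118). Lamb3 was lower by 0.62 (SE 0.16, adjusted p 0.0145) and Itgb5 by 0.58 (SE 0.10, adjusted p 7.37e-04), both without overlap. In 7 of the 8 called genes PV and LA did not overlap, beside 11.5% of all genes tested that were called without overlap. The call of Lamb3 was lost without PV replicate 1, at an adjusted p of 0.0511. With only the 8 arrays compared, the calls of Itga1, Itgb4 and Itgbl1 were lost.

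Against SA, 5 genes were higher in PV and 0 lower, 17.2% of the 29, beside 3.49% of all genes tested (2.71% higher, 0.783% lower). They were Itga8 by 2.16 (SE 0.37, adjusted p 0.00301), Lamc3 by 1.38 (SE 0.27, adjusted p 0.00896), Itgb4 by 0.86 (SE 0.20, adjusted p 0.0209), Lama5 by 0.51 (SE 0.12, adjusted p 0.0250) and Itgb1 by 0.33 (SE 0.08, adjusted p 0.0287). Lama5 overlapped between PV and SA, and the other 4 did not, beside 3.12% of all genes tested that were called without overlap. The dim second probe of Lamc3 again went the other way, at -0.87. This comparison shares its PV arrays with the one before. Its count rested on single arrays. It was 2 without SA replicate 2 or PV replicate 4 and 3 without SA replicate 1, SA replicate 3 or PV replicate 1. Of the single calls, that of Itgb1 was lost with the replicate number as a block, with scaling to the 75th percentile and without SA replicate 1, 2 or 3 or PV replicate 3 or 4, that of Itgb4 without SA replicate 2 or 3 or PV replicate 1 or 4, and that of Lama5 without SA replicate 1 or 2 or PV replicate 1 or 4. Over all alternatives, their adjusted p reached 0.132, 0.0949 and 0.193. With a limma fit restricted to the 8 arrays of PV and SA, 0 of the 29 were called, beside 0.434% of all genes, with 9 at an unadjusted p below 0.05, beside 16.1% of all genes.

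Markers of other cells moved with the SA and PV differences. Of 5 smooth muscle markers, 4 were higher in SA and 4 in PV than in LA, with sums of 41772 to 54722 in SA, 48805 to 68363 in PV and 25429 to 30905 in LA, and 3 were higher in PV than in SA. Of 5 Schwann cell markers, 4 were higher in PV than in LA and 3 higher than in SA, with sums of 3774 to 5615 in LA and 6935 to 7743 in SA. The 3 measured mesothelial markers were lower in SA and in PV than in LA, where the sum was highest. Of 3 erythroid markers 2 were higher in SA and 2 in PV than in LA, with sums of 74457 to 143413 in SA, 72528 to 108781 in PV and 25725 to 44705 in LA. Of 4 fibroblast markers, 1 was higher in PV than in LA and 1 than in SA, and in SA 1 was higher and 2 lower than in LA, with sums of 135256 to 185402 in PV, 77869 to 134282 in SA and 61011 to 124109 in LA. Of 4 measured adipocyte markers, 3 were higher in PV and 1 in SA than in LA. Of 4 pacemaker markers, 4 were higher in SA and 3 in PV than in LA, and 2 were lower in PV than in SA. Of 6 leukocyte markers, 2 were lower in SA and 2 in PV than in LA. Of 2 measured autonomic neuron markers, 1 was higher in PV than in LA and 1 than in SA. The part of these cells in the differences was not tested.

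**Figure D4:**
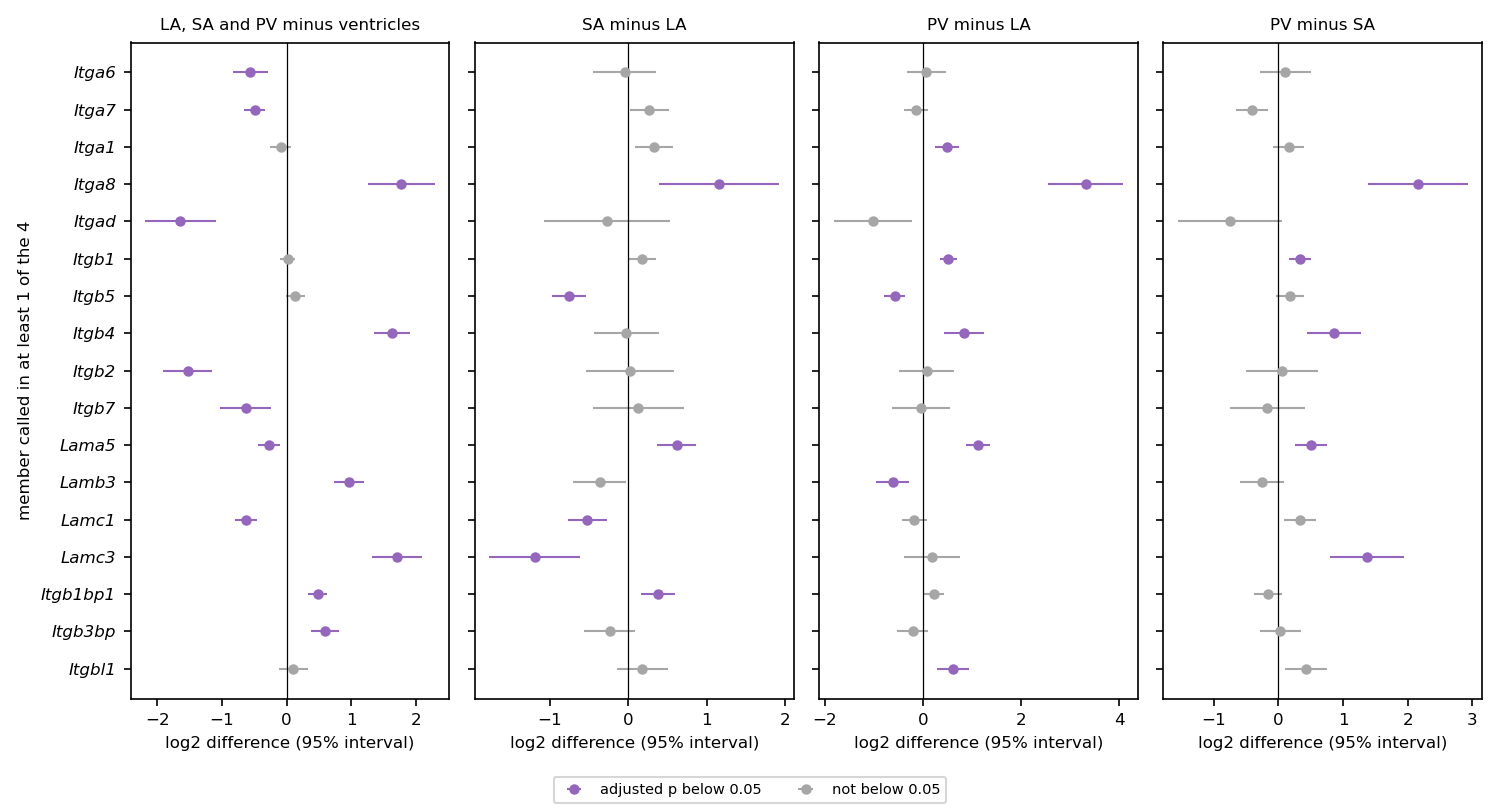
Differences of 17 integrin and laminin genes called in at least 1 of the 4 comparisons shown (log2; points are limma estimates, bars 95% intervals, n = 4 arrays a region and 3 for RV). Purple marks an adjusted p below 0.05, and Itga8 is higher in the first group in all 4 panels, by 1.77, 1.15, 3.31 and 2.16.

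LV was compared with RV last. None of the 29 genes was called (0 of 29, beside 0.522% of all genes tested), with 6 at an unadjusted p below 0.05 in the limma fit, beside 10.7% of all genes. With only the 7 ventricular arrays, the count was also 0, with 5 at an unadjusted p below 0.05, beside 9.19% of all genes. The 6 were Lama5, at 0.42 (95% interval 0.15 to 0.69, adjusted p 0.175), Itga5 at 0.33 (0.05 to 0.60, adjusted p 0.344), Itga1 at 0.27 (0.01 to 0.52, adjusted p 0.431) and Itgb1 at 0.20 (0.01 to 0.38, adjusted p 0.416), with the higher mean in LV, and Itgb4 at -0.58 (-1.03 to -0.14, adjusted p 0.272) and Lamc3 at -0.65 (-1.27 to -0.03, adjusted p 0.431), with the higher mean in RV. LV and RV arrays did not overlap in 5 of the 29 genes (Lama5, Itga5, Itgb4, Itgb5 and Lamc3), beside 10.3% of all genes tested.

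The partners of integrins and laminins were described in PA from 4 lists. Of 14 other basement membrane genes, 8 were measured, with 5 higher and 3 lower in PA and a median difference of 1.04. Of all genes tested 31.4% were higher and 27.7% lower in PA, with a median of 0.05, beside which this and the next 3 lists are to be read. Col18a1, the source of endostatin, was higher by 4.71 (SE 0.12) and Col15a1 by 1.98 (SE 0.14), while nidogen 2 (Nid2) was lower by 1.44 (SE 0.13). Col4a4, a type IV collagen chain, was lower by 1.09 (SE 0.14), with overlap. Of 17 measured extracellular integrin ligands, 10 were higher and 5 lower, with a median of 0.53. Osteopontin (Spp1) averaged 12.25 in PA and 4.11 to 6.76 elsewhere, a difference of 6.60 (SE 0.56, adjusted p 2.96e-09), or 6.38 with dim readings raised as above, since 10 of the 19 other arrays were well above background. Fbln5, an elastic fibre protein, was higher by 4.44 (SE 0.18), Vcam1 by 3.77 (SE 0.15) and fibronectin (Fn1) by 2.73 (SE 0.14). Vitronectin (Vtn) went the other way, at 6.51 in PA and 11.21 to 12.79 elsewhere, lower by 5.51 (SE 0.16, adjusted p 1.38e-16).

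Of 25 measured cytoplasmic adaptors of integrins, 16 were higher in PA and 3 lower, with a median of 0.94. Filamin A (Flna) was higher by 5.10 (SE 0.16), Actn1 by 4.55 (SE 0.16), Src kinase by 2.70 (SE 0.23) and Actn4 by 2.29 (SE 0.07). Parvb and Tln2, both abundant in striated muscle, were lower by 2.26 (SE 0.08) and 1.21 (SE 0.09). Another list held 12 genes of laminin receptors that are not integrins and of the dystrophin complex that one of them, dystroglycan, anchors (Dag1, Bcam, 3 syndecans, Dmd, Utrn and 5 sarcoglycans). Of these, 6 were higher and 4 lower, with a median of 0.10. Syndecan 1 (Sdc1) was higher by 2.64 (SE 0.20), and Sgca, a sarcoglycan of striated muscle, was lower by 1.65 (SE 0.06). The smooth muscle and myocyte markers given above moved with these lists too.

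The same lists were described between the atrial side and the ventricles. Of the basement membrane genes 1 was higher and 4 lower on the atrial side, of the ligands 4 and 5, of the adaptors 9 and 8, and of the laminin receptor and dystrophin complex genes 7 and 2, beside 18.6% of all genes higher and 22.3% lower. Nid2 was higher on the atrial side by 1.31 (SE 0.11, adjusted p 1.52e-08), and Ntn4, a laminin-related netrin, was lower by 1.98 (SE 0.23, adjusted p 7.68e-07), or 1.65 with dim readings raised, since 7 of the 12 atrial-side arrays were well above background. Col4a1 was lower by 0.95 (SE 0.11). Vcam1 was higher by 1.61 (SE 0.13), Vtn lower by 1.19 (SE 0.14), the kinase Ptk2b higher by 1.38 (SE 0.10) and Parvb lower by 1.03 (SE 0.07). In SA against LA, 8 of 25 adaptors were higher and 0 lower, 0 of 8 basement membrane genes were higher and 2 lower, 1 of 17 ligands was higher and 4 lower, and 3 of 12 laminin receptor and dystrophin complex genes were higher and 3 lower, beside 7.03% of all genes higher and 8.26% lower. In PV against LA, the counts were 8 and 0 for the adaptors, with Flna higher by 2.06 (SE 0.20), 3 and 1 for the basement membrane genes, 4 and 2 for the ligands and 3 and 0 for the laminin receptor and dystrophin complex genes, beside 6.99% and 6.51% of all genes.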

How the data were processed

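The arrays were Agilent SurePrint G3 Rat GE 8x60K v2, hybridized with Cy3-labeled cRNA. The deposited normalized intensities are linear signals of Agilent Feature Extraction 11.0.1.1, multiplied by the authors by 1 factor per array (0.881 to 1.52) which gives each array the same 90th percentile. At least 99.57% of the probes of each array were within 2% of that product. The authors' scanner files also give each spot's intensity with a detection mark (well above background). No saturated spots were found. Probes with a missing value (156 of 45596) were removed. Accessions were matched to RefSeq symbols (GRCr8), which named 21047 probes and 16544 genes. On each array the brightest probe stood for its gene, 1 was added and the log2 taken, and the 16089 genes above 4 on at least 1 array were tested.

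The label's region gave the group of a sample. A fit of the 6 regions with limma 3.58.1 in R 4.3.3 gave the F-test and the contrasts, with Benjamini-Hochberg adjustment over all genes tested. The methods' analysis of variance was kept as an alternative to the F-test. On simulated data of PA against the other regions (16089 genes, 200 changed by a log2 difference of 1), the test recovered 72% of the changed genes, and 7.1% of its calls were false. The genes given in full passed the threshold, were detected throughout the higher group and did not overlap between groups, and other called genes are given with the criterion they miss. Of the 29 genes, 1 is counted but not otherwise reported here. The genes, lists and tests were chosen with earlier results of these data known. The alternatives were scanner signals scaled to the 90th or 75th percentile, quantile normalization, normexp background correction (offset 50), no filter or a filter on background, a pseudocount of 16, the probe brightest on average, a trend in the prior variance, a block for slide, row or replicate number, leaving out each array, and fitting only the arrays compared. Marker and pathway lists are described by counts. Plots were made with matplotlib 3.10.9 and pandas 2.3.3 in Python 3.11.15. Precision is limited by the 3 or 4 arrays of a region.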

Additional observations from a re-analysis of the deposited data

Results flagged for a closer look

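In 145 groups of 4 arrays (29 genes in 5 regions), 8 had an array far from the other 3 by Dixon's test at its 95% critical value. Chance alone marks about 1 group in 20. LV replicate 4 was high in Itgb2 (9.18, the others 7.90 to 7.94) and in Itga8 (8.27, the others 7.05 to 7.26). LV replicate 1 was low in Itga1 (14.04, the others 14.36 to 14.39). LA replicate 2 was high in Itgal (3.29, the others 1.96 to 2.17), where no array was well above background. Itgb3bp was low on SA replicate 4 (9.79, the others 10.03 to 10.07) and on PA replicate 1 (10.79, the others 11.26 to 11.33). PV replicate 3 was low in Itgb7 (5.64, the others 6.23 to 6.31), and PV replicate 4 was high in Lamb2 (13.41, the others 13.20 to 13.23). The cause of these gaps was not tested.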

How the results depend on the processing

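No integrin or laminin gene that was called changed direction under any alternative. Under all of them, 22 of 23 calls held for PA, 13 of 14 for the atrial side against the ventricles, 2 of 6 for SA against LA, 4 of 8 for PV against LA and 0 of 5 for PV against SA. With only the arrays compared in the fit, 3 genes were called for SA against LA, 5 for PV against LA and 0 for PV against SA, with fewer arrays to estimate the spread. For PV against SA, 0.434% of all genes were called in that fit. This share is not given here for SA against LA or PV against LA, so those counts have no baseline. With each array left out, the count was 25 to 27 for the F-test, 22 to 23 for PA, 13 to 16 for the atrial side, 4 to 7 for SA against LA, 7 to 9 for PV against LA, 2 to 6 for PV against SA and 0 for LV against RV. Normexp correction gave 9 genes for SA against LA and moved the median of all genes from 0.01 to 0.18 there and from -0.03 to 0.10 for PV against LA. It was also the one alternative that moved called differences by over 1.5 times, in Itga10, Itga4, Itgb3, Itgb6 and Itgb7 for PA and in Itgb2 and Itgb7 for the atrial side.

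The replicate numbers are shared between regions. Arrays of the same number did not deviate together on average (mean correlation -0.02 over 55 pairs, 12 of them over 0.1, beside 0.01 over 165 pairs of different numbers). This mean cannot tell whether arrays of the same number share a rat. Arrays of 1 slide (mean correlation 0.09 over 71 pairs, 38 over 0.1, beside -0.04 over 149 pairs of different slides) and of 1 row (0.08 over 107 pairs, 50 over 0.1, beside -0.07 over 113) deviated together more, and slide and row were each tried as a block. With the replicate number as a block, the counts were 26 for the F-test, 23, 14, 5, 8 and 4 for the contrasts in the order above, and 0 for LV against RV. Signals near the filter value of 4 lie close to background, which limits Itgal, Lama1, Itga10 and Itgb6.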
